A study of Homo sapiens with 6 samples.

Results

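The cadherin and protocadherin genes of the count table numbered 86 of 50550 gene rows, or of 44494 rows with a gene symbol. They were chosen by name: CDH or PCDH followed by digits, and the members of the PCDHA, PCDHB and PCDHG gene clusters. The X- and Y-linked PCDH11 genes and PCDH19, pseudogenes, antisense rows and numbered copies of a gene were not included. The members were 23 CDH genes, 10 protocadherin genes that stand alone, and 53 clustered protocadherins (15 alpha, 16 beta and 22 gamma). RNA was sequenced from U2OS, an established human osteosarcoma cell line, in 3 libraries titled Lv_LINC00673, with genotype LINC00673, and 3 libraries titled Lv_NC, with genotype NC. The series describes wild-type U2OS cells and derivatives in which the long noncoding RNA LINC00673 was knocked down. The labels give no agent, dose or time, and do not say what Lv or NC stands for, or whether the Lv_NC cells carry a vector. No label states separate cultures for the libraries of a group. The p-values set the difference between the groups against the variation among libraries of a group, and that variation may be technical.

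Cadherins are cell surface proteins whose extracellular repeats bind calcium and hold neighbouring cells together. The classical cadherins of type I and type II bind like molecules on the next cell and are tied to the actin skeleton by catenins. Delta protocadherins stand alone in the genome. The clustered protocadherins lie in tandem on chromosome 5 and are known best from neurons, where each cell uses its own choice of alternative promoters. In the alpha and gamma clusters each variable first exon is spliced to constant exons shared by the whole cluster, while each beta gene is a single exon. Most promoters of the clusters carry a conserved element with a CGCT core, and CTCF and cohesin are known to take part in promoter choice.

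LINC00673 itself had 479, 417 and 435 counts in Lv_LINC00673 libraries 1 to 3, against 709, 751 and 516 in Lv_NC libraries 1 to 3. In CPM, the count scaled to library size with TMM factors, its level was 6.39 ± 0.159 in Lv_LINC00673 and 8.50 ± 1.24 in Lv_NC (SD, n = 3 each). In CPM every Lv_LINC00673 library was below every Lv_NC library. In deposited FPKM (fragments per length of transcript and library size) the groups overlapped, with 2.73 to 2.82 in Lv_LINC00673 and 2.75 to 3.53 in Lv_NC. The log2 fold change, Lv_LINC00673 over Lv_NC as for every fold change here, was -0.41 (SE 0.16). It missed the threshold of 0.05 in edgeR's quasi-likelihood test with Benjamini-Hochberg adjustment over 21933 genes (adjusted p = 0.0924). Of 16 alternative fits, DESeq2 alone called LINC00673 (adjusted p = 0.0429). The adjusted p reached 0.353 with limma on log2(FPKM + 0.1). Total counts were 61815841 to 71237493 in Lv_LINC00673 and 76814723 to 87227980 in Lv_NC, of which the members took 0.0475 to 0.0492% in Lv_LINC00673 and 0.0418 to 0.0456% in Lv_NC. Of 6 mesenchymal or bone markers, VIM, COL1A1, SPARC and FN1 were abundant, with mean levels of 36.8 to 1187 deposited FPKM, RUNX2 had 0.546 FPKM and COL1A2 was near 0. The 4 blood markers summed to 0.161 to 0.273 CPM in Lv_LINC00673 and 0.0775 to 0.466 CPM in Lv_NC. The 5 epithelial, 3 endothelial, 4 neural and 3 muscle markers had mean levels of 0.0507 to 9.59, 0.0524 to 0.232, 0.184 to 5.91 and 0.0778 to 12.3 FPKM, with CLDN4, VWF, RBFOX3 and MYOD1 highest. Several markers differed between the groups: VIM, RUNX2 and FN1 had log2 fold changes of 0.34, 1.25 and 1.52 (adjusted p = 0.0140, 0.00921 and 0.00256) and SPARC -0.36 (adjusted p = 0.0141). The mesenchymal markers summed to 3944 to 4339 CPM in Lv_LINC00673 and 3084 to 3255 CPM in Lv_NC. Of the neural markers, the synaptic SYT1 was higher at 1.88 and the neuronal RBFOX3 lower at -0.48 (adjusted p = 0.00958 and 0.0230, and 0.0307 and 0.119 in a fit, given further on, that also corrects for GC content and transcript length). The part of the markers in the results below was not tested. In bulk RNA, fewer cells of a type and less RNA per cell cannot be told apart.

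The promoters of the clustered genes are shown because each of these genes is switched on from a promoter of its own. RefSeq's windows of 250 bases before to 50 bases after the gene start (GRCh38.p14) matched 67 of the 86 members. For each cluster the run of 10 bases held by most of its promoters was found in these same windows, so that the runs describe them and test nothing. Where runs tied, one that holds CGCT was preferred. In the beta cluster the run was GGTGGCGCTG, which 12 of 14 promoters held and the other 2 matched with 1 mismatch. It was found on either strand in 0.276% of all 35093 promoter windows and in none of the 20 gamma or 13 alpha promoters. The following stretches of 40 bases, all on the plus strand of chromosome 5, run from PCDHB1 (chr5:141051333-141051372) to PCDHB15 (chr5:141245310-141245349) in genome order, with the run or its nearest match in capitals.
PCDHB1: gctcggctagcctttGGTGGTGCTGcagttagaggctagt
PCDHB2: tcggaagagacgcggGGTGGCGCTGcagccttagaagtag
PCDHB3: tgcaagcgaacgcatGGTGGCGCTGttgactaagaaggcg
PCDHB4: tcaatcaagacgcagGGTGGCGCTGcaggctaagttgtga
PCDHB5: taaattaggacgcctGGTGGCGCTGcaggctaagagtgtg
PCDHB7: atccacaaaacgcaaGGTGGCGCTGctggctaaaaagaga
PCDHB8: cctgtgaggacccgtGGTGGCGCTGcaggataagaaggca
PCDHB16: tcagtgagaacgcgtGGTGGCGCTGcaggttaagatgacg
PCDHB9: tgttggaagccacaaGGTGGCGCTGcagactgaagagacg
PCDHB10: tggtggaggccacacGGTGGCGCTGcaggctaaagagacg
PCDHB12: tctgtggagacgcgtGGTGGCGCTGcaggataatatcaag
PCDHB13: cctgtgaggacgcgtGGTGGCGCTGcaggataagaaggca
PCDHB14: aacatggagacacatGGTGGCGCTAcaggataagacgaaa
PCDHB15: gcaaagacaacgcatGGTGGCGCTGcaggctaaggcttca
The run began 2 to 84 bases before the annotated start, with a median of 65.5 bases. PCDHB5 and PCDHB8, which were called higher in Lv_LINC00673, both held it without a mismatch, as did most beta promoters. PCDHB6, also called higher, had no window. The 2 with a mismatch were PCDHB1, which had 0 counts in all 6 libraries, and PCDHB14, which had 383 counts in all. PCDHB4, with an exact match, had 58 counts in all. The relation of the match to the level was not tested.

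The runs taken for the alpha and gamma clusters differed from the beta run and also held the CGCT core, which the choice among ties favoured. In the alpha cluster TGATGTCGCT was held by 8 of 13 promoters and by 0.0342% of all windows. In the gamma cluster GCGCCGCTGT was held by 9 of 20 promoters, by 0.131% of all windows and by 1 of the 20 promoters of members outside the clusters. The examples are members with the highest levels or the smallest p in their clusters and lie between chr5:140827892-140827931 (PCDHA6) and chr5:141475877-141475916 (PCDHGC3) on the plus strand. The nearest match had 3 mismatches in PCDHAC2, 2 in PCDHGB3 and 1 in PCDHGC3, and the others matched exactly.
PCDHA6: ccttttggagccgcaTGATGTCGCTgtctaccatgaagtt
PCDHA7: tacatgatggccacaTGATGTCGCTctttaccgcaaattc
PCDHAC2: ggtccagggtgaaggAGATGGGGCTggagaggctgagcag
PCDHGB1: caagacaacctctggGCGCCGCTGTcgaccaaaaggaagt
PCDHGB3: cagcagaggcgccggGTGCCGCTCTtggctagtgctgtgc
PCDHGC3: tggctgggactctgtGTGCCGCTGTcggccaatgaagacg
The CGCT core alone was in 12 of 13 alpha, 14 of 14 beta and 20 of 20 gamma promoters, but also in 70% of all windows. A TATA box (TATAAA) was in 3, 1 and 2 of them, against 11.5% of all windows, and the E-box CAGGTG, which repressors of CDH1 bind, was in 0, 1 and 3, against 20.6% of all windows. Each motif was searched on both strands, and the core lies inside the runs.

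The whole windows of PCDHB5 (chr5:141134956-141135255) and PCDHB8 (chr5:141177540-141177839), both on the plus strand, are shown because these genes carried the highest levels of the beta cluster. Their GC content was 38.0 and 43.3%, and capitals mark the shared run.
PCDHB5: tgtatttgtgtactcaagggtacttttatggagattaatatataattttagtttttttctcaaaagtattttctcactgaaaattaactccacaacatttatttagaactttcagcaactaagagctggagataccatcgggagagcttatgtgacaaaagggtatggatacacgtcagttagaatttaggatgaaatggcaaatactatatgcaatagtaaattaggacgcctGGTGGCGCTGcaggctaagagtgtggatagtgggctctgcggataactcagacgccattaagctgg
PCDHB8: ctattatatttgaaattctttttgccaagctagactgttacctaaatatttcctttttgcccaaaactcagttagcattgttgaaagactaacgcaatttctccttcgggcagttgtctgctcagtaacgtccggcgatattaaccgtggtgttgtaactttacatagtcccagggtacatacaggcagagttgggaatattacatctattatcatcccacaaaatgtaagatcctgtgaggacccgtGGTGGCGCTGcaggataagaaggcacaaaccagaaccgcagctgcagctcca

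Levels per length spanned a wide range. CDH4, or R-cadherin, a type I cadherin first known from retina, had 26.6, 23.5 and 24.5 FPKM in Lv_LINC00673 and 27.3, 32.5 and 30.2 FPKM in Lv_NC. CDH24, a type II cadherin, had 28.2, 24.8 and 24.6 FPKM in Lv_LINC00673 and 19.1, 24.2 and 22.4 FPKM in Lv_NC. The levels of these 2 genes overlapped in Lv_LINC00673, while in Lv_NC every CDH4 value was above every CDH24 value. After a gap came CDH2, or N-cadherin, the cadherin of neural and mesenchymal cells, at 7.32 ± 1.33 FPKM in Lv_LINC00673 and 4.42 ± 0.455 FPKM in Lv_NC (SD, n = 3 each). PCDHGC3 followed with 5.20 ± 0.359 FPKM in Lv_LINC00673 and 5.44 ± 0.145 FPKM in Lv_NC. PCDH7 had 4.44 ± 0.219 FPKM in Lv_LINC00673 and 4.59 ± 0.278 FPKM in Lv_NC, and CDH13 had 4.76 ± 1.07 FPKM in Lv_LINC00673 and 2.91 ± 0.589 FPKM in Lv_NC. CDH2 was above PCDHGC3 in every Lv_LINC00673 library and below it in every Lv_NC library, and the values of PCDH7 and CDH13 overlapped in Lv_LINC00673. Of the 14 neighbouring pairs among the 15 most abundant members, 7 overlapped in Lv_LINC00673 and 4 in Lv_NC. In all, 11 members had a mean of at least 1 FPKM, 35 lay from 0.1 to under 1, 36 were above 0 and under 0.1, and CDH16, PCDH10, PCDH20 and PCDHB1 had no count. CDH1, or E-cadherin, the epithelial cadherin, had 0.162 ± 0.0759 FPKM in Lv_LINC00673 and 0.118 ± 0.0328 FPKM in Lv_NC.

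**Figure D1:**
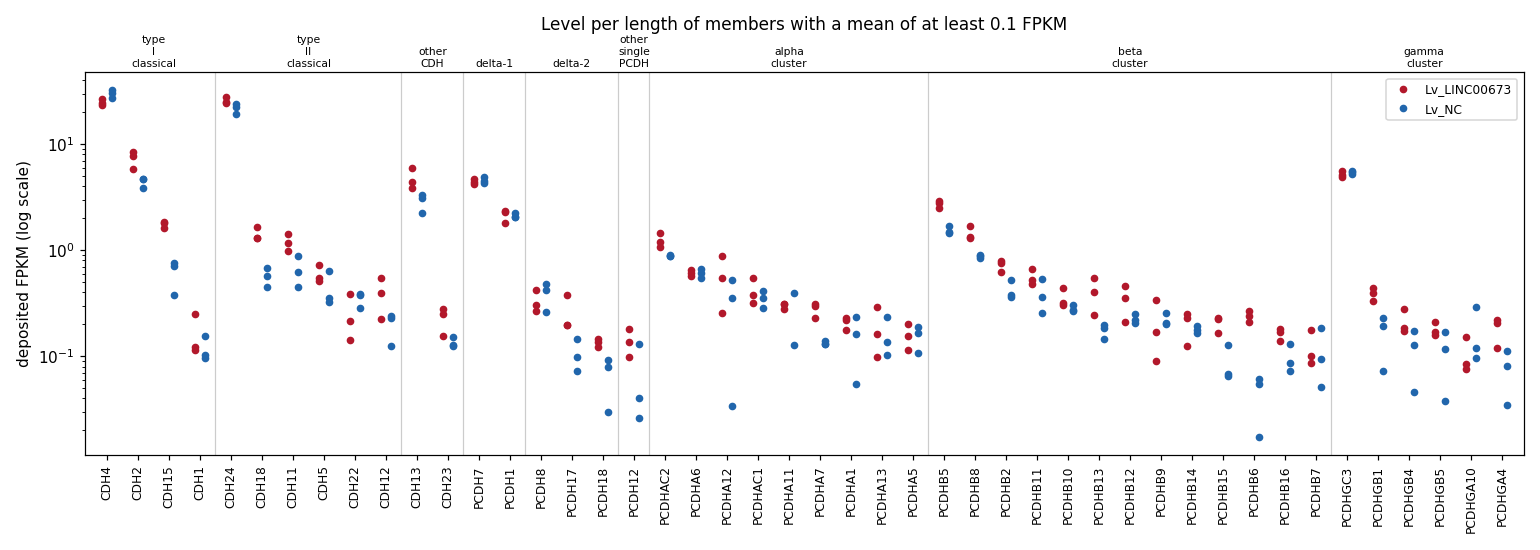
Deposited FPKM (log scale) of the members with a mean of at least 0.1 FPKM, ordered by family and level; each point is 1 library, Lv_LINC00673 in red and left of Lv_NC in blue. CDH4 and CDH24 stand above all other members, PCDHGC3 stands above the rest of the gamma cluster, and PCDHB5 above the rest of the beta cluster.

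CDH4 took a smaller share of the members' summed CPM in Lv_LINC00673, with 37.6, 33.7 and 35.8%, against 45.3, 49.5 and 46.3% in Lv_NC. The shares of the groups did not overlap. CDH24 took 20.8, 18.5 and 18.8% in Lv_LINC00673 and 16.6, 19.1 and 17.9% in Lv_NC, which overlapped. The summed CPM of all 86 members was 457 ± 18.5 in Lv_LINC00673 and 468 ± 27.1 in Lv_NC (SD, n = 3 each), so the sums overlapped while their make-up differed. The overlap depends on the TMM factors. As a share of total counts, the members took 0.0475 to 0.0492% in Lv_LINC00673 and 0.0418 to 0.0456% in Lv_NC, without overlap.

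The comparison asked which members differed between Lv_LINC00673 and Lv_NC. Of the 60 members that passed the filter on low counts, CDH2, CDH13, CDH15, CDH18, PCDHB5, PCDHB6 and PCDHB8 were higher and CDH4 was lower. The 7 higher calls are 11.7% of the 60, against 14.3% of all 21933 genes tested, and the 1 lower call is 1.67%, against 12.5% of all genes. The share called higher was therefore near the background. Of the 60, 48 had a positive and 12 a negative log2 fold change, with a median of 0.50, against 0.05 over all genes tested. The groups did not overlap in CPM for 18 members that were higher and 2 that were lower. In either direction this was 33.3% of the 60, against 45.1% of all genes tested (23.7% higher and 21.4% lower). These counts do not stand for all 86 members: 13 members passed the filter with every Lv_LINC00673 library but not every Lv_NC library at its 0.135 CPM, and 1 the other way round. Members let in by their Lv_LINC00673 level can tilt the signs, the median and the count without overlap toward higher values. These are therefore a description, from which no direction is drawn. Without Lv_LINC00673 replicate 2, Lv_LINC00673 replicate 3, Lv_NC replicate 2 or Lv_NC replicate 3, the genes called numbered 2716, 2830, 3631 and 2913, against 5883 with all libraries, and the members called higher numbered 4, 3, 6 and 5.

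Across 10877 well expressed genes, log2 fold changes followed the GC content (Spearman's rho -0.51) and the length of the gene's longest transcript (rho 0.45), a description across genes, which are not independent. A fit with an offset for both per library called 8 of the 60 members higher and 2 lower, against 16.7% and 16.4% of 16180 genes, and gave a median of 0.28 over the members and 0.05 over all genes. In that fit CDH13 was no longer called, and CDH24, PCDH7 and PCDHGB1 were.

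**Figure D2:**
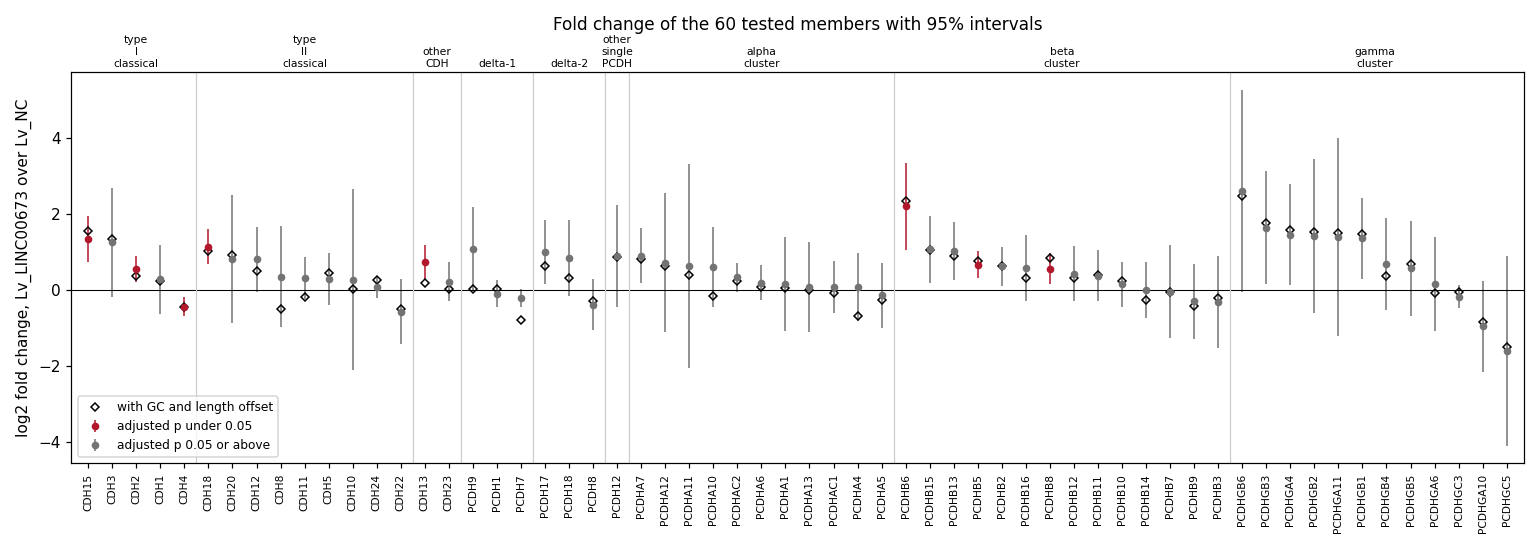
Log2 fold change of each of the 60 tested members, Lv_LINC00673 over Lv_NC, with 95% intervals from edgeR; red points have an adjusted p under 0.05, grey points do not, and open diamonds give the fit with the GC and length offset. CDH4 is the only red point below 0, and PCDHB6 at 2.21 has the largest called change.

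The 26 members under the filter had at most 40 counts in any library. Of the 22 with any count, 21 had more counts in the 3 Lv_LINC00673 libraries than in the 3 Lv_NC libraries and PCDHGC4 had 13 in each, though the Lv_LINC00673 libraries were less deep. Their counts summed to 521 in Lv_LINC00673 and 151 in Lv_NC. Among all 12472 rows under the filter with any count, 59.4% had more counts in Lv_LINC00673. Of the 53 clustered protocadherins 37 passed the filter, a share near that of all members (60 of 86). Examples under the filter are PCDHA2 with 65 counts in Lv_LINC00673 and 18 in Lv_NC, PCDHB4 with 49 in Lv_LINC00673 and 9 in Lv_NC, and PCDHGA1 with 45 in Lv_LINC00673 and 10 in Lv_NC. Many of these counts came from 1 library: PCDHB4 reached 30 and PCDHGA8 all of its 17 in a single one.

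Among the 5 type I classical cadherins 2 were higher (40%) and 1 lower (20%), against 14.3% and 12.5% of all genes tested. The same all-gene shares apply to the counts of each family below. CDH4 had 179.8, 151 and 159 CPM in Lv_LINC00673 and 198, 243 and 220.4 CPM in Lv_NC. All Lv_LINC00673 libraries were lower. The log2 fold change was -0.43 (SE 0.11, edgeR adjusted p = 0.0193), a level 1.35-fold lower, and -0.44 with the GC and length offset (adjusted p = 0.00147). A second row of the table, a numbered copy of CDH4 that the members leave out, had 65.4, 60.8 and 68.9 CPM in Lv_LINC00673 and 78.6, 84.0 and 79.9 CPM in Lv_NC, also without overlap. Its log2 fold change was -0.31 (SE 0.09, edgeR adjusted p = 0.0307), and the summed rows gave -0.40 (adjusted p = 0.0174). The adjusted p of CDH4 was 0.0630 to 0.0750 without Lv_LINC00673 replicate 2 or 3 or Lv_NC replicate 2 or 3, and 0.0595 when libraries were scaled by their totals alone.

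CDH2 had 23.7, 32.2 and 30.5 CPM in Lv_LINC00673 and 20.3, 17.5 and 20.7 CPM in Lv_NC. The groups did not overlap, with Lv_LINC00673 replicate 1 nearest to Lv_NC. CDH2 thus had a log2 fold change of 0.56 (SE 0.15, edgeR adjusted p = 0.0247), and 0.36 with the GC and length offset (adjusted p = 0.0183). The adjusted p was 0.0652 to 0.0990 without Lv_LINC00673 replicate 2 or 3 or Lv_NC replicate 2 or 3. CDH15, or M-cadherin, the cadherin of muscle precursors, had 5.22, 4.44 and 5.15 CPM in Lv_LINC00673 and 2.34, 2.28 and 1.19 CPM in Lv_NC. Its lowest Lv_LINC00673 library was well above its highest Lv_NC library. The log2 fold change was 1.35 (SE 0.27, edgeR adjusted p = 0.00966), a level 2.54-fold higher, and the call held under all 18 alternatives (adjusted p 5.18e-05 to 0.0483). The muscle marker MYOD1, by comparison, had 24.1 ± 2.16 CPM in Lv_LINC00673 and 21.7 ± 2.03 CPM in Lv_NC (log2 fold change 0.15, adjusted p = 0.423), which became 0.49 with the GC and length offset (adjusted p = 0.00329), and summed CPM of the 3 muscle markers were 23.3 to 27.4 in Lv_LINC00673 and 20.04 to 23.9 in Lv_NC. CDH3, or P-cadherin, had 0.551 ± 0.0743 CPM in Lv_LINC00673 and 0.231 ± 0.207 CPM in Lv_NC (adjusted p = 0.176), and CDH1 had 0.780 ± 0.348 CPM in Lv_LINC00673 and 0.640 ± 0.174 CPM in Lv_NC (adjusted p = 0.642). The epithelial markers summed to 21.9 to 22.9 CPM in Lv_LINC00673 and 16.6 to 19.7 CPM in Lv_NC.

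Of the 13 type II cadherins 9 were tested, and CDH18 was the only one called (11.1% higher, against 14.3% of all genes tested). CDH18, a type II cadherin known mainly from brain, had 6.86, 8.40 and 6.65 CPM in Lv_LINC00673 and 3.93, 3.38 and 2.58 CPM in Lv_NC. The groups stood well apart. Its log2 fold change was 1.15 (SE 0.20, edgeR adjusted p = 0.00723), a level 2.21-fold higher, and the call held under all 18 alternatives (adjusted p 9.11e-06 to 0.0462). Summed CPM of the 4 neural markers were 25.3 to 25.8 in Lv_LINC00673 and 28.3 to 29.7 in Lv_NC. RBFOX3, the largest part of that sum, had 15.8 ± 1.44 CPM in Lv_LINC00673 and 22.0 ± 0.381 CPM in Lv_NC. The other 3 had positive log2 fold changes, 1.88 for SYT1, 0.71 for MAP2 and 0.24 for SNAP25 (edgeR adjusted p = 0.00958, 0.108 and 0.302). With the GC and length offset MAP2 and SNAP25 were at 0.02 and -0.05. SYT1 had 1.58 ± 0.320 CPM in Lv_LINC00673 and 0.426 ± 0.192 CPM in Lv_NC. CDH24, the second most abundant member per length, had 99.4, 82.9 and 83.8 CPM in Lv_LINC00673 and 72.6, 94.0 and 85.2 CPM in Lv_NC. These overlapped, with a log2 fold change of 0.08 and a 95% interval of -0.20 to 0.36 (edgeR adjusted p = 0.666). With the GC and length offset it was 0.26 (adjusted p = 0.0199), and without Lv_LINC00673 replicate 1 or Lv_NC replicate 1 its sign turned (-0.025 and -0.020). CDH11, or OB-cadherin, the cadherin of osteoblasts, had 5.95 ± 0.582 CPM in Lv_LINC00673 and 4.77 ± 1.53 CPM in Lv_NC, a log2 fold change of 0.32 (95% interval -0.23 to 0.86, adjusted p = 0.363). Its deposited FPKM was 1.19 ± 0.215 in Lv_LINC00673 and 0.649 ± 0.214 in Lv_NC. CDH5, or VE-cadherin, the endothelial cadherin, had 2.39 ± 0.546 CPM in Lv_LINC00673 and 1.96 ± 0.754 CPM in Lv_NC (adjusted p = 0.519), and the endothelial markers summed to 3.30 to 3.72 CPM in Lv_LINC00673 and 1.44 to 2.58 CPM in Lv_NC. CDH22 was the only tested type II gene with a negative value, at -0.57 (adjusted p = 0.296).

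CDH13, or T-cadherin, which is held in the membrane by a lipid anchor and lacks the cytoplasmic tail of classical cadherins, had 27.2, 38.8 and 29.6 CPM in Lv_LINC00673 and 23.4, 14.7 and 18.8 CPM in Lv_NC. The groups did not overlap, and the widest spread within a group was in Lv_LINC00673. Its log2 fold change was 0.75 (SE 0.20, edgeR adjusted p = 0.0253). With the GC and length offset it was 0.19 (adjusted p = 0.186), and the adjusted p was 0.0619 to 0.0953 without Lv_LINC00673 replicate 2 or 3 or Lv_NC replicate 2 or 3. CDH23, a cadherin of the tip links of inner ear hair cells, had 1.93 ± 0.312 CPM in Lv_LINC00673 and 1.65 ± 0.159 CPM in Lv_NC (adjusted p = 0.491). PCDH15, its partner in the tip link, had 24 counts in Lv_LINC00673 and 5 in Lv_NC, and the kidney and intestinal cadherins CDH16 and CDH17 had 0 and 4 counts in all.

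**Figure D3:**
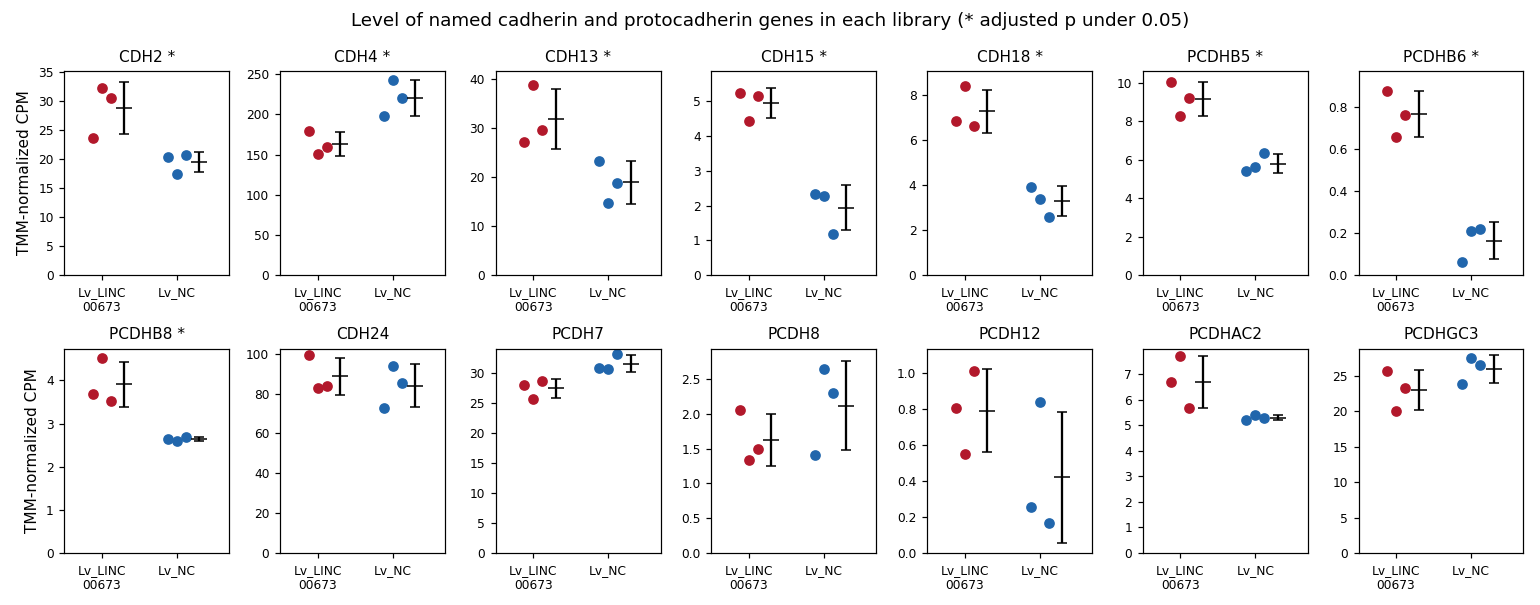
TMM-normalized CPM of 14 members by library, Lv_LINC00673 in red and Lv_NC in blue; each point is 1 library, bars give the mean and SD (n = 3 each), and an asterisk marks an edgeR adjusted p under 0.05. In the 8 marked genes the groups do not overlap, and CDH4 is the only one of them that is lower in Lv_LINC00673.

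Of the 10 protocadherins that stand alone, 7 were tested and none was called by edgeR, 1 of them, PCDH17, having an unadjusted p under 0.05. With DESeq2 PCDH17 was called. PCDH7, a delta-1 protocadherin, had 28.1, 25.7 and 28.7 CPM in Lv_LINC00673 and 30.8, 30.8 and 33.2 CPM in Lv_NC. All Lv_LINC00673 libraries were lower. The log2 fold change was -0.20 (SE 0.11, adjusted p = 0.192). With the GC and length offset it was -0.79 (adjusted p = 0.00441). PCDH1, a delta-1 protocadherin known from airway epithelium, had 8.87 ± 1.29 CPM in Lv_LINC00673 and 9.46 ± 0.277 CPM in Lv_NC (adjusted p = 0.703). PCDH9, also delta-1, had 1.44 ± 0.755 CPM in Lv_LINC00673 and 0.679 ± 0.257 CPM in Lv_NC (adjusted p = 0.131).

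Among the delta-2 protocadherins, PCDH8 had 2.05, 1.33 and 1.50 CPM in Lv_LINC00673 and 1.41, 2.64 and 2.30 CPM in Lv_NC. The groups overlapped (log2 fold change -0.38, SE 0.29, adjusted p = 0.376). PCDH17 had 1.92 ± 0.764 CPM in Lv_LINC00673 and 0.959 ± 0.347 CPM in Lv_NC (log2 fold change 1.00, adjusted p = 0.0757), and PCDH18 had 0.787 ± 0.0722 CPM in Lv_LINC00673 and 0.439 ± 0.214 CPM in Lv_NC (adjusted p = 0.190). In both genes every Lv_LINC00673 library was above every Lv_NC library. PCDH12, a protocadherin of endothelial cells, had 0.806, 0.553 and 1.01 CPM in Lv_LINC00673 and 0.258, 0.839 and 0.165 CPM in Lv_NC. These overlapped through Lv_NC replicate 2, and the adjusted p was 0.293 with it and 0.0364 without it.

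The clustered protocadherins were all on the plus strand of chromosome 5 (GENCODE v29, GRCh38), the alpha cluster from 140786136 to 141012347, the beta cluster from 141051135 to 141249365 and the gamma cluster from 141330571 to 141512981. Every alpha member shared 3 exon blocks of 2866 bases with the others, and 19.2 to 56.6% of a member's exon bases lay in bases of another member. Every gamma member shared 3 blocks of 2181 bases, and the overlap was 27.6 to 64.4%. The 16 beta genes had 1 exon each and shared none. The sources used here do not give how the counting split reads of shared exons, so the value of any single alpha or gamma gene is uncertain. Parts of some beta genes are also crossed by opposite-strand noncoding genes (14.7% of PCDHB5, 1.81% of PCDHB6), and without a stated strand setting their reads cannot be told apart. A noncoding gene on the same strand, AC244517.8, covers 8.07% of PCDHB8, where no strand setting could part the reads.

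**Figure D4:**
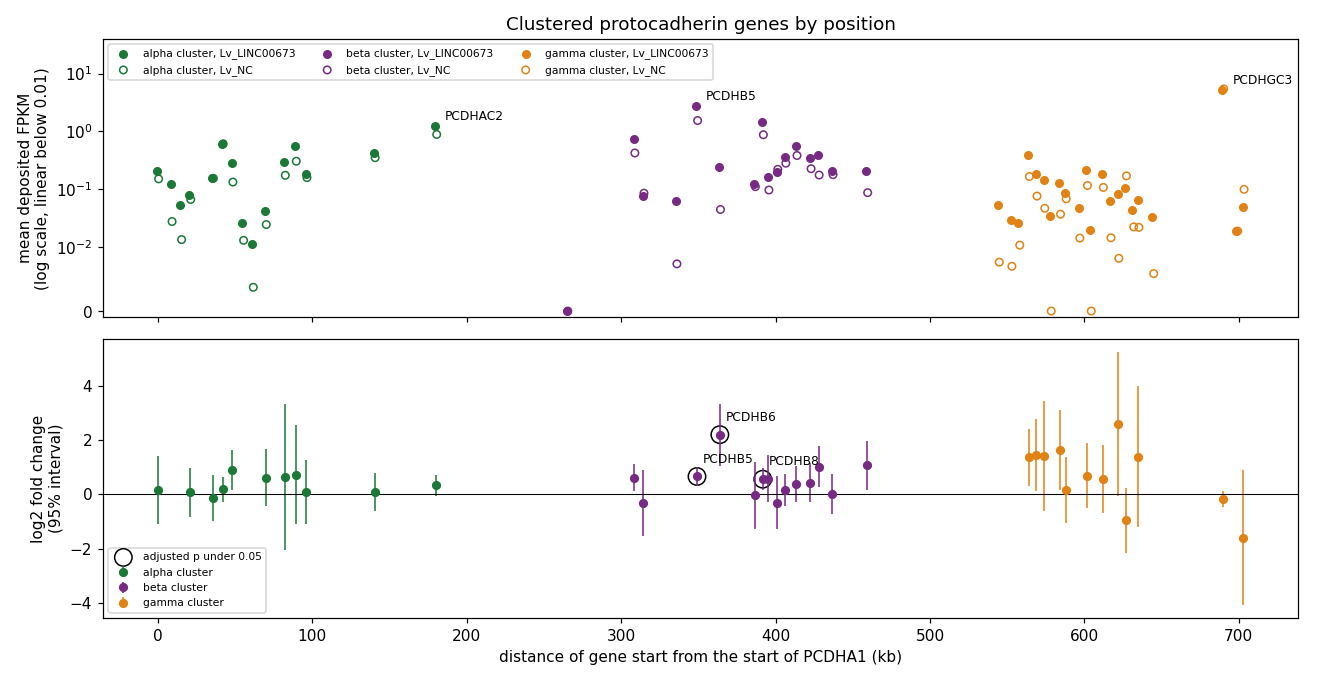
Clustered protocadherins by distance of the gene start from the start of PCDHA1 in kilobases. Above, mean deposited FPKM (log scale, linear below 0.01) in Lv_LINC00673 (filled) and Lv_NC (open); below, log2 fold changes of the 37 tested genes with 95% intervals. PCDHB5, PCDHB6 and PCDHB8, ringed, have an adjusted p under 0.05, and PCDHGC3 has the highest level.

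In the beta cluster 14 of 16 genes were tested and 3 were higher by edgeR, or 21.4%, against 14.3% of all genes tested. None was lower by edgeR, also before adjustment, or by DESeq2, and 11 of the 14 values were positive, with a median of 0.50, against 0.05 over all genes. PCDHB5, the most abundant beta gene, had 10.02, 8.26 and 9.21 CPM in Lv_LINC00673 and 5.39, 5.64 and 6.34 CPM in Lv_NC. The lowest Lv_LINC00673 library was above the highest Lv_NC library. PCDHB5 had a log2 fold change of 0.66 (SE 0.16, edgeR adjusted p = 0.0167), and 0.77 with the GC and length offset (adjusted p = 0.00279). The adjusted p was 0.0633 without Lv_LINC00673 replicate 3. PCDHB8 had 3.69, 4.51 and 3.54 CPM in Lv_LINC00673 and 2.65, 2.60 and 2.69 CPM in Lv_NC. The Lv_NC libraries were tightly grouped, below all Lv_LINC00673 libraries. The log2 fold change was 0.56 (SE 0.18, edgeR adjusted p = 0.0470), just past the threshold, and 0.83 with the offset (adjusted p = 0.00796). The call was lost without any one of the 6 libraries (adjusted p 0.0673 to 0.180).

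PCDHB6 had 64, 44 and 52 counts in Lv_LINC00673 and 5, 17 and 16 counts in Lv_NC. In CPM these were 0.875, 0.657 and 0.763 in Lv_LINC00673 and 0.0646, 0.210 and 0.219 in Lv_NC. The groups stood apart at a low level. With Lv_NC replicate 1 under the cut-off of the filter, PCDHB6 was 1 of the 13 members that passed it without every Lv_NC library. Its log2 fold change was 2.21 (SE 0.50, 95% interval 1.06 to 3.35, edgeR adjusted p = 0.0152), and the adjusted p was 0.0535 without Lv_LINC00673 replicate 3. PCDHB13, with 1.99 ± 0.807 CPM in Lv_LINC00673 and 0.981 ± 0.150 CPM in Lv_NC, missed the threshold (log2 fold change 1.02, adjusted p = 0.0519). It was called by DESeq2, with upper-quartile factors, with library totals alone, with a filter of 1 CPM and without Lv_LINC00673 replicate 3. PCDHB2 and PCDHB15 did not overlap either, at 0.62 and 1.07 (adjusted p = 0.0712 and 0.0738). The negative values were those of PCDHB3, PCDHB7 and PCDHB9, from -0.32 to -0.04 (adjusted p 0.654 to 0.969). Summed over the 16 genes, the beta cluster had 28.2, 28.4 and 26.1 CPM in Lv_LINC00673 and 17.7, 17.6 and 21.0 CPM in Lv_NC. The sums did not overlap, and without PCDHB5 they were 18.4 ± 1.64 in Lv_LINC00673 and 13.0 ± 1.46 in Lv_NC.

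In the alpha cluster 11 of 15 genes were tested and none was called by edgeR with TMM factors, PCDHA7 having an unadjusted p under 0.05. DESeq2 called none either. PCDHA7 was called by edgeR with library totals alone and by limma on log2(FPKM + 1) and on log2(FPKM + 0.1). PCDHAC2, the last variable exon of the cluster and its most abundant gene, had 6.67, 7.69 and 5.68 CPM in Lv_LINC00673 and 5.19, 5.38 and 5.28 CPM in Lv_NC. All Lv_LINC00673 libraries were higher, with replicate 3 close to Lv_NC, and the log2 fold change was 0.34 (SE 0.17, adjusted p = 0.167). PCDHA7 had 0.796 ± 0.130 CPM in Lv_LINC00673 and 0.423 ± 0.0143 CPM in Lv_NC (log2 fold change 0.91, adjusted p = 0.0668). PCDHA6 had 2.50 ± 0.343 CPM in Lv_LINC00673 and 2.19 ± 0.180 CPM in Lv_NC (adjusted p = 0.515). Summed CPM of the cluster were 17.7, 19.8 and 14.8 in Lv_LINC00673 and 14.6, 11.5 and 14.7 in Lv_NC, with Lv_LINC00673 replicate 3 just above the highest Lv_NC library.

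In the gamma cluster 12 of 22 genes were tested and none was called by edgeR with all 6 libraries and no offset. PCDHGB1, PCDHGB3 and PCDHGA4 had unadjusted p-values under 0.05. DESeq2 called PCDHGB1, limma-voom PCDHGB6 and limma on log2(FPKM + 1) both. PCDHGB6 was also called by limma on log2(FPKM + 0.1) and by edgeR without Lv_NC replicate 2. PCDHGB3, PCDHGA4 and PCDHGB6 passed the filter through their Lv_LINC00673 level. Their counts in Lv_NC libraries 1 to 3 were 12, 4 and 8, then 8, 20 and 24, then 0, 8 and 0. PCDHGC3, the most abundant clustered gene, had 25.7, 20.02 and 23.3 CPM in Lv_LINC00673 and 23.8, 27.6 and 26.5 CPM in Lv_NC. The groups overlapped (log2 fold change -0.18, 95% interval -0.47 to 0.12, adjusted p = 0.362). PCDHGB1 had 1.17 ± 0.430 CPM in Lv_LINC00673 and 0.455 ± 0.226 CPM in Lv_NC, without overlap (log2 fold change 1.37, adjusted p = 0.0609, and 0.0444 with the GC and length offset). The 7 gamma B genes, tested or not, summed to 2.68, 3.39 and 3.37 CPM in Lv_LINC00673 and 1.86, 1.04 and 1.30 CPM in Lv_NC, without overlap. PCDHGA10 and PCDHGC5 had negative values of -0.95 and -1.59 (adjusted p = 0.212 and 0.317). The whole cluster summed to 29.2 ± 3.01 CPM in Lv_LINC00673 and 29.7 ± 2.39 CPM in Lv_NC. Without PCDHGC3 the sums were 6.10, 5.89 and 6.72 CPM in Lv_LINC00673 and 3.40, 4.43 and 3.47 CPM in Lv_NC, which did not overlap. Leaving out this most abundant gene was not planned, and of the remaining 21 genes only 11 passed the filter.

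**Figure D5:**
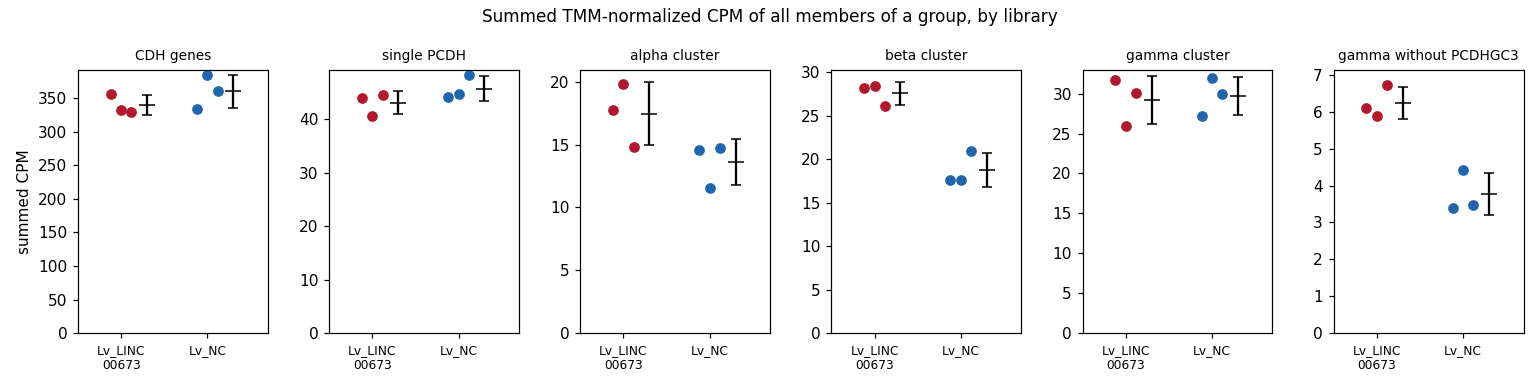
Summed TMM-normalized CPM of all members of a group in each library, Lv_LINC00673 in red and Lv_NC in blue, with mean and SD (n = 3 each). The sums do not overlap in the beta cluster and in the gamma cluster without PCDHGC3, are close in the alpha cluster (14.8 in the lowest Lv_LINC00673 and 14.7 in the highest Lv_NC library), and overlap in the CDH genes, the single protocadherins and the whole gamma cluster.

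A list of 81 partner genes, chosen with results of these data known, was read beside the members. Of 70 tested, 27 were higher (38.6%) and 7 lower (10%), against 14.3% and 12.5% of all genes, and the median log2 fold change was 0.21, against 0.05 over all genes. The same all-gene shares apply to the counts of each role below. Among 10 tested catenins, CTNND1 (p120-catenin, which keeps cadherins at the surface) rose to 115 ± 9.33 CPM in Lv_LINC00673, against 69.4 ± 11.2 CPM in Lv_NC (log2 fold change 0.73, adjusted p = 0.00702, and 0.46 with the GC and length offset, adjusted p = 0.00196). CTNNAL1 and CTNNA2, an alpha-catenin relative and the neural alpha-catenin, rose by 0.81 and 0.70 on the log2 scale (adjusted p = 0.0160 and 0.0127). Among the neural markers, as given above, SYT1 was higher and RBFOX3 lower. CTNNB1, or beta-catenin, which links cadherin tails to alpha-catenin, had 221 ± 20.8 CPM in Lv_LINC00673 and 234 ± 14.5 CPM in Lv_NC (log2 fold change -0.08, adjusted p = 0.593), and -0.42 with the GC and length offset (adjusted p = 0.00117).

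Of 10 adhesion linkers 4 were higher (40%) and 3 lower (30%), against 14.3% and 12.5% of all genes. The nectin NECTIN3 and the junction scaffolds TJP1 and AFDN rose by 1.29, 1.21 and 0.76 on the log2 scale (adjusted p = 0.0113, 0.0104 and 0.0126), or 0.87, 0.76 and 0.41 with the GC and length offset (adjusted p = 0.00314, 0.00750 and 0.0131). VCL, or vinculin, rose by 0.49 (adjusted p = 0.0220, and 0.493 with the GC and length offset). The actin crosslinkers ACTN1 and ACTN4 fell by 0.62 and 0.53 on the log2 scale (adjusted p = 0.00440 and 0.00827), and NECTIN2 fell by 0.46 (adjusted p = 0.0107, and 0.0531 with the offset). Of 5 tested desmosomal genes, the desmosomal cadherin DSG2 rose by 1.15 and the plakophilin PKP2 by 0.72 on the log2 scale (adjusted p = 0.00698 and 0.00881), or 0.66 and 0.63 with the offset (adjusted p = 0.00215 and 0.00159). Of 16 other genes of the cadherin superfamily, the giant cadherins FAT1 and FAT4 rose by 1.32 and 1.22 on the log2 scale (adjusted p = 0.00503 and 0.00853), or 0.77 and 0.60 with the offset (adjusted p = 0.00332 and 0.0210). No other was called without the offset, while with it CELSR2 was also called at -0.48 and CLSTN3 at 0.32 (adjusted p = 0.00362 and 0.0419).

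Among 8 genes of cadherin proteolysis and turnover, ADAM10, a protease that sheds cadherin ectodomains, rose by 1.12 on the log2 scale, or 0.26 with the GC and length offset (adjusted p = 0.00827 and 0.0425). PSEN2, a gamma-secretase subunit, fell by 0.44 (adjusted p = 0.0445, and 0.392 with the offset). Of the 5 tested repressors of CDH1, ZEB1 rose by 1.17 on the log2 scale, or 0.55 with the offset (adjusted p = 0.0199 and 0.0479), while SNAI1 and TWIST2 fell by 0.54 and 0.61 (adjusted p = 0.0252 and 0.0212, and 0.421 and 0.299 with the offset). SNAI2 was called only with the offset, at -0.66 (adjusted p = 0.0320), against -0.39 without it (adjusted p = 0.119). Of 16 regulators of the protocadherin clusters, 14 were higher (87.5%) and 1 lower (6.25%), against 14.3% and 12.5% of all genes, with a median of 1.12, against 0.05 over all genes. With the offset 14 were again higher and 1 lower, against 16.7% and 16.4% of all genes, and the median was 0.52, against 0.05 over all genes. The list was chosen with results of these data known, so its counts are a description. The cohesin subunits and partners STAG2, SMC3 and PDS5B rose by 1.75, 1.66 and 1.51 on the log2 scale (adjusted p = 0.00557, 0.00570 and 0.0102), or 1.12, 1.21 and 0.76 with the offset (adjusted p = 0.00106, 0.00112 and 0.00608). SMCHD1, a silencer of clustered genes, rose by 1.48, or 0.71 with the offset (adjusted p = 0.00709 and 0.00230). CTCF, the zinc finger protein that binds the clusters' promoters, had 47.1 ± 5.00 CPM in Lv_LINC00673 and 30.5 ± 4.70 CPM in Lv_NC (log2 fold change 0.62, adjusted p = 0.0149). DNMT3A, a DNA methyltransferase, fell by 0.37 on the log2 scale (adjusted p = 0.0246). The part of these regulators in the values of the clusters was not tested.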

How the data were processed

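Total RNA of 6 U2OS libraries was extracted with TRIzol and prepared with a TruSeq kit, per the labels. The authors deposited raw read counts per gene, which are whole numbers and not normalized, and FPKM values per gene, with no length model or tool stated. Each column name matched the title of 1 library (with Lin written for LINC). The build was hg38, per the submitters' processing notes. The sources used here do not give the aligner, counter, annotation or strand setting.

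Libraries were grouped by title, Lv_LINC00673 (n = 3) against Lv_NC (n = 3). After filterByExpr and TMM scaling, all genes were tested in R 4.3.3 by the quasi-likelihood test of edgeR 4.0.16 (robust, both directions). P-values were adjusted by Benjamini-Hochberg over 21933 genes with a threshold of 0.05, and adjusted p-values come from edgeR where no other tool is named. SE is the log2 fold change over the square root of F, and intervals are at 95%. Levels between genes are compared only in FPKM. The GC and length offset used splines (5 degrees of freedom each) on each gene's longest GENCODE v29 transcript. Alternatives were DESeq2 1.42.0, limma 3.58.1, other scalings and filters, a replicate block and leaving out each library, 18 in all. Precision rests on total counts of 61815841 to 87227980 per library. Replicates of a group differed by more than counting error (chi-square per degree of freedom 36.7 to 73.6).

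Members and lists were chosen with earlier results of these data known. Members named with values per library are those past the threshold, the most abundant of each family and the 5 most abundant of all; partner genes are named up to the 4 largest changes per role past the threshold. PCDHB13, PCDHB2, PCDHB15, PCDHGB1, CDH11, VCL, ACTN4, NECTIN2, CTNNB1, CTCF, DNMT3A, CELSR2, CLSTN3, SNAI2, the markers named and others given by mean were chosen after their values were seen. The sums without PCDHGC3 and without PCDHB5 were not planned.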

Additional observations from a re-analysis of the deposited data

How the results depend on the processing

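CDH15 and CDH18 kept their calls under all 18 alternatives. PCDHB5 kept its call in 16 of 18, CDH2 in 13 of 18, CDH4 in 10 of 18, CDH13 in 9 of 18, PCDHB8 in 7 of 18 and PCDHB6 in 15 of 17 (it was under a filter of 1 CPM), all with the sign of the fold change unchanged. Members called lower numbered 0 with library totals alone, with log2(FPKM + 1) and with log2(FPKM + 0.1), and 2 with the GC and length offset. Over all genes the median log2 fold change was 0.22 under library totals alone and 0.17 under log2(FPKM + 0.1), against 0.05 as reported. Leaving out 1 library gave 2716 to 6490 genes called, 3 to 8 members called higher and 0 to 2 called lower. With 1 library left out, the log2 fold change of CDH24 ranged from -0.025 (without Lv_LINC00673 replicate 1) to 0.165 and was -0.020 without Lv_NC replicate 1; the cause was not tested. Deviations from the group means of same-numbered libraries correlated at -0.42, -0.36 and 0.04, and not every library correlated best with its own number. These values rest on 3 libraries per group and were taken without the GC and length offset. They cannot decide whether the replicate numbers of the titles pair the libraries. With the replicate block 1208 genes, 2 members higher and 0 lower were called, and with the block and the GC and length offset 3780 genes, 6 members higher and 2 lower. Summing CDH4 with its copy was chosen after seeing the data. Depth is lowest for the members near the filter, and PCDHB6 rests on 5 to 64 counts per library.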
